A study of Mus musculus with 5 samples.

Results

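The genes described here are 45 members of the transforming growth factor beta (TGF-beta) and bone morphogenetic protein (BMP) system in mouse embryonic stem cells, with and without the DEAD-box RNA helicase DDX5. They were listed by name and comprise 31 genes for secreted ligands or their subunits, 13 for secreted antagonists and 1, Bambi, for a membrane pseudoreceptor. All 45 were found among the 21631 protein-coding genes of the annotation. Marked genes are those where a peak and the window of the gene plus 2 kb on each side have at least 1 bp in common, and the covered length of a gene is the number of base pairs of that window lying in peaks.

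The study used chromatin immunoprecipitation and sequencing (ChIP-seq) on the embryonic stem cell line MPI-II. Wild-type MPI-II cells were compared with a DDX5 knock-out made in the same line, which is 1 monoclonal line obtained with a Cas9 nickase and paired guides to exon 2 of Ddx5. Both grew on feeder cells in medium with 15% serum, 1000 U/ml LIF, 1 µM of the MEK inhibitor PD0325901 and 3 µM of the GSK3 inhibitor CH99021. H2AK119ub was precipitated from both genotypes, and RYBP, with an antibody listed under the alias DEDAF, from wild-type cells. Each of the 3 groups has 1 library, so no difference below has a replicate error or a test, and the intervals given cover counting error only.

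The 3 peak lists hold 24235 wild-type H2AK119ub peaks over 45.9 Mb, 20994 knockout peaks over 30.6 Mb and 9564 RYBP peaks over 17.2 Mb. Read depth is unknown, and a shallower or less enriched library also gives fewer and narrower peaks, which cannot be told apart from a difference between genotypes. Ddx5 itself had no H2AK119ub peak in either genotype and 1 RYBP peak, and peak positions do not check the genotype. Of 9 marker genes of embryonic stem cells 8 had no H2AK119ub in either genotype, Pou5f1, Nanog and Sox2 among them. The other, Esrrb, was marked in both genotypes (11.1%). Of 8 fibroblast markers 5 were marked in both, 62.5%. Most genes lack the mark: of all protein-coding genes 27.9% were marked in the wild type and 20.7% in both genotypes. Peak lists give no expression, so neither the cell identity nor a share of feeder chromatin was tested.

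The ligands of this family are secreted as dimers and bind pairs of type I and type II receptor kinases, which phosphorylate SMAD transcription factors. BMPs act through one set of SMADs and TGF-beta, activin and Nodal through another, and secreted antagonists bind the ligands or their co-receptors and keep them from signalling. In the early embryo Nodal patterns the germ layers and BMP4 from the extraembryonic ectoderm induces germ cells, while noggin and chordin shield the neural plate from BMP. H2AK119ub is a ubiquitin attached to histone H2A by Polycomb repressive complex 1, and RYBP belongs to the variant complexes of that group. Developmental regulators that embryonic stem cells keep silent are its classical targets.

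Most of the family carried the mark, and most members that carried it in wild-type cells also did in the knockout. H2AK119ub was present at 26 of 45 members in the wild type, 57.8% (95% Wilson interval 43.3% to 71.0%), where 27.9% of all protein-coding genes were marked. In bulk chromatin a mark in some of the cells and a weaker mark in all of them cannot be told apart. In the knockout it was present at 23 members, 51.1% (37.0% to 65.0%), beside 23.6% of all genes. The same 23 were marked in both genotypes, beside 20.7% of all genes, which is 88.5% of the members marked in the wild type, beside 74.1% of all genes marked there. Gdf15, Amh and Lefty1 were marked in the wild type alone, 3 members or 6.67%, which is close to the 7.20% of all genes in that class. No member was marked in the knockout alone, a class that held 3.00% of all genes. RYBP was present at 25 members, 55.6% (41.2% to 69.1%), beside 37.6% of all genes. No peak of any library was found at 17 members, 37.8%, beside 52.8% of all genes. The members are short genes, with a median length of 9394 bp against 17329 bp, and among genes shorter than the median gene the shares were 26.2% for wild-type H2AK119ub and 28.6% for RYBP.

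Ligands and antagonists were marked at shares whose counting intervals overlap widely. In the wild type 19 of 31 ligands (61.3%, interval 43.8% to 76.3%) and 7 of 13 secreted antagonists (53.8%, 29.1% to 76.8%) carried H2AK119ub, a difference of 7.44 percentage points with a 95% Newcombe interval from -21.4 to 36.3. In the knockout 17 ligands (54.8%) and 6 antagonists (46.2%) did, beside 23.6% of all genes. RYBP was present at 19 ligands (61.3%) and 5 antagonists (38.5%), beside 37.6% of all genes. The antagonist share with RYBP was thus close to that of all genes. Among members marked in the wild type, 18 of 19 ligands (94.7%) and 5 of 7 antagonists (71.4%) also had RYBP. Over both roles 23 members, 51.1%, had wild-type H2AK119ub and RYBP, beside 19.6% of all genes. That is 88.5% of the 26 marked members, beside 70.2% of all genes marked in the wild type. Gdf11, Lefty1 and Fstl3 had the mark without RYBP, 3 members or 6.67%, beside 8.29% of all genes.

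**Figure D1:**
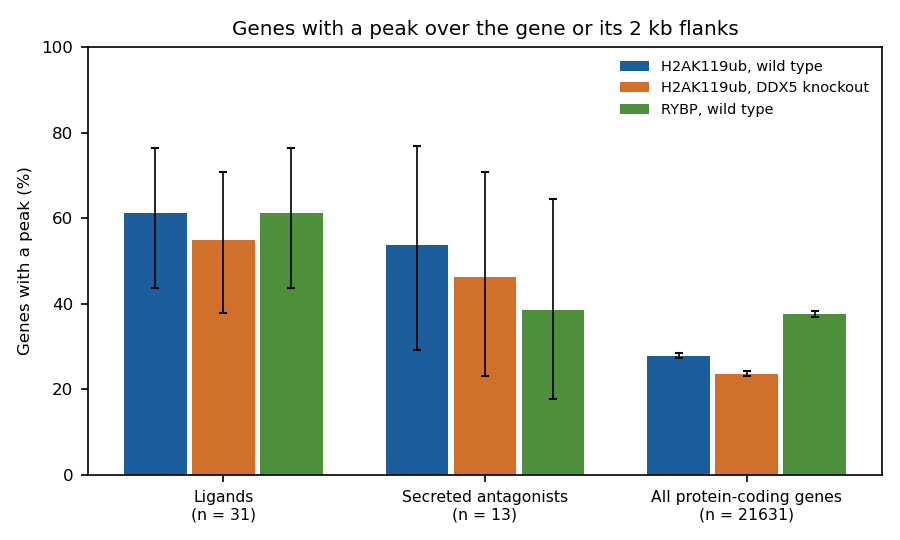
Share of genes with at least 1 peak over the gene or its 2 kb flanks (vertical axis, percent) for the 31 ligands, the 13 secreted antagonists and all 21631 protein-coding genes, in each of the 3 libraries. Bars are shares and error bars 95% Wilson intervals; the wild-type H2AK119ub bars stand at 61.3% for ligands, 53.8% for antagonists and 27.9% for all genes, and the intervals of the 2 roles overlap.

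The BMP ligand genes were marked at 6 of 10 members, the same 6 in both genotypes, beside 20.7% of all genes marked in both. Bmp7 (chromosome 2, 172868012 to 172940321), whose product acts in kidney and eye development, had by far the longest covered sequence of the family in the wild type: 28765 bp in 15 peaks, or 37.7% of its window. In the knockout it had 7903 bp in 4 peaks, 10.4% of the window, and RYBP covered 4832 bp in 2 peaks. Of the 15 wild-type peaks 3 met a knockout peak and 12 did not. Of all wild-type peaks at protein-coding genes 52.9% met one. The 2 peaks at the higher-coordinate end of the gene, 7095 and 2871 bp wide, had counterparts of 4475 and 3613 bp in the knockout. Those without a counterpart all lay inside the gene or at its other end. The Bmp7 ratio of knockout to wild-type covered length was 0.27, and 8.19% of all genes marked in both genotypes had a lower one. Over all genes of chromosome 2 the ratio was 0.63.

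Bmp2 (chromosome 2, 133552159 to 133562896), which drives bone and heart development, had 3826 bp in 3 peaks in the wild type, 1831 bp in 1 peak in the knockout and 3201 bp of RYBP. Bmp3 (chromosome 5, 98854415 to 98884053), which encodes a BMP that inhibits bone formation, had 3415 bp, 1425 bp and 1772 bp in the same order of libraries. At both genes the knockout had a single peak, inside the gene. Wild-type peaks just outside the lower-coordinate end, 1163 bp wide at Bmp2 and 1699 bp wide at Bmp3, had no knockout counterpart, nor did a peak of 844 bp inside Bmp2. Bmp6 (chromosome 13, 38345716 to 38500314), the ligand that induces hepcidin in iron metabolism, had 5528 bp, 4656 bp and 3636 bp. Its RYBP peak lay over the gene start and wholly within a wild-type H2AK119ub peak of 5017 bp.

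Bmp4 and Bmp8b had more covered sequence in the knockout. Bmp4 (chromosome 14, 46383525 to 46390669) had 1 H2AK119ub peak in each genotype, of 2031 bp in wild-type cells and of 2918 bp in knockout cells, and the knockout peak reached over the gene start. Within the gene body alone the order at Bmp4 was the opposite, by 75 bp. Its 2 RYBP peaks lay further downstream and met neither, at 412 and 2114 bp from the wild-type peak. Bmp8b (chromosome 4, 123104308 to 123126094) had 1554 bp in 1 wild-type peak and 3335 bp in 3 knockout peaks, 1 of which also overlaps Oxct2b. The neighbouring paralog Bmp8a (chromosome 4, 123312645 to 123343252), which like Bmp8b acts in germ cell formation, had 1821 bp of RYBP over its start and no H2AK119ub in either genotype. Its RYBP peak was 95077 bp from the nearest wild-type H2AK119ub peak. Bmp5, Bmp10 and Bmp15 had no peak in any library.

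Growth and differentiation factor (GDF) genes were marked at 7 of 10 members in wild-type cells and 6 in knockout cells, beside 27.9% and 23.6% of all genes. At all 6 marked in both, the knockout length was below the wild-type length, as at 78.6% of all genes marked in both. That order turned at Gdf7 with 1 kb flanks or none and at Gdf6 over gene ends alone. Gdf7 (chromosome 12, 8297918 to 8301954), a roof plate signal of the spinal cord, was the member with the largest covered share in either genotype: 6544 bp in wild-type cells and 6411 bp in the knockout, 81.4% and 79.8% of its window, with 5383 bp of RYBP in 1 peak. Its RYBP peak and the H2AK119ub peaks in the gene body also overlap Ldah. With those peaks left out, Gdf7 had 1763 bp in the wild type, 1530 bp in the knockout and no RYBP. Over the whole Gdf7 window the 2 genotypes were nearly alike, with 6311 bp shared. Gdf6 (chromosome 4, 9844372 to 9862345), which patterns joints and the eye, had 8836 bp, 5339 bp and 4478 bp, with 3 peaks in each library. All of its peaks in one genotype met a peak in the other, and the knockout peaks were narrower.

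Gdf1 (chromosome 8, 70315775 to 70331592), which acts with Nodal in left-right patterning, had 9152 bp in 4 wild-type peaks, 4675 bp in 2 knockout peaks and 6364 bp in 2 RYBP peaks. The gene overlaps Cers1, with which it shares a transcript, so none of these peaks belongs to Gdf1 alone. Gdf10 (chromosome 14, 33923587 to 33936514) had 4544 bp in 4 peaks, 2550 bp in 3 peaks and 1598 bp of RYBP over its start. Gdf5 (chromosome 2, 155941023 to 155945367), a joint-forming factor, had 2282 bp, 1729 bp and 1242 bp. Gdf11 (chromosome 10, 128880524 to 128891718), which patterns the axial skeleton, had 1520 bp and 728 bp of H2AK119ub before its start and no RYBP. Its knockout peak lay 1068 bp from the gene, the farthest of any peak that made a call by itself. With 1 kb flanks, or with peaks of at least 1 kb, Gdf11 was marked in the wild type alone. Gdf2, Gdf3 and Gdf9 had no peak. Gdf3 is a Nodal-related ligand that pluripotent cells are known to transcribe.

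Gdf15 (chromosome 8, 70629393 to 70632470), a stress-induced cytokine, was marked in the wild type alone, with 1434 bp in a peak before its start. The nearest knockout peak was 29470 bp from the gene. RYBP covered 3187 bp of the Gdf15 window, part of it beyond the gene, and lay 959 bp from the wild-type H2AK119ub peak. The protein and the mark thus did not overlap at this gene. Within the gene body alone Gdf15 had no H2AK119ub. Amh (chromosome 10, 80805240 to 80807679), the anti-Müllerian hormone of the gonads, was also marked in the wild type alone, with 3391 bp in 2 peaks, and had 1152 bp of RYBP. The nearest knockout peak was 25473 bp away. One of the 2 wild-type peaks at Amh also overlaps Jsrp1. Over all genes of chromosome 10 the ratio of knockout to wild-type covered length was 0.50, and on chromosome 8 it was 0.64. Of the genes of chromosome 8, 45.1% were marked in the wild type and 10.6% in the wild type alone. Those shares were 27.9% and 7.20% over all genes. Mstn, the muscle growth inhibitor myostatin, had no peak.

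Of the 5 activin and inhibin subunit genes 2 were marked in both genotypes, beside 20.7% of all genes. The other 3 had no peak in any library, beside 52.8% of all genes. The marked pair had long domains. Inhbb (chromosome 1, 119415463 to 119422248), the activin B subunit, had 8678 bp in 4 wild-type peaks and 8130 bp in 5 knockout peaks, 80.5% and 75.4% of its window, with 3828 bp of RYBP over its start. All peaks of each genotype met one of the other. Inha (chromosome 1, 75507077 to 75510366), the inhibin alpha subunit that turns activin into its antagonist inhibin, had 4884 bp, 4446 bp and 1744 bp. Its wild-type peak, 7201 bp wide, also overlaps Obsl1. So does its RYBP peak, which lay outside the gene, at 257 bp. When peaks shared with another gene were left out, Inha had 1171 bp in the knockout, none in the wild type and no RYBP. Inhba, Inhbc and Inhbe had no peak, and the nearest wild-type H2AK119ub peak to Inhba lay 2218742 bp away.

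Nodal (chromosome 10, 61417972 to 61425338), the germ layer inducer that is active in pluripotent cells, had no peak of any library. The nearest peaks were 36116 bp away for wild-type H2AK119ub, 50622 bp for the knockout and 26312 bp for RYBP. All 3 TGF-beta genes were marked in both genotypes and had RYBP, but over gene ends alone Tgfb2 had no peak of any library. Of all genes 20.7% were marked in both and 37.6% had RYBP. Tgfb1 (chromosome 7, 25687002 to 25705077), the main immune-regulating isoform, had 4490 bp in 3 peaks, 3100 bp in 2 peaks and 4371 bp of RYBP over its start. That RYBP peak also overlaps B9d2. Tgfb3 (chromosome 12, 86056743 to 86079041), needed for palate fusion, had 4620 bp, 1959 bp and 1756 bp; over gene ends alone its knockout length was the greater by 39 bp. Tgfb2 (chromosome 1, 186622787 to 186709697), which acts in heart and skeletal development, had a wild-type peak of 915 bp and a knockout peak of 1444 bp. Its RYBP peak of 1535 bp lay over the start listed, which is inside the gene, with the H2AK119ub just downstream. With peaks of at least 1 kb Tgfb2 was marked in the knockout alone, since its only wild-type peak is narrower.

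**Figure D2:**
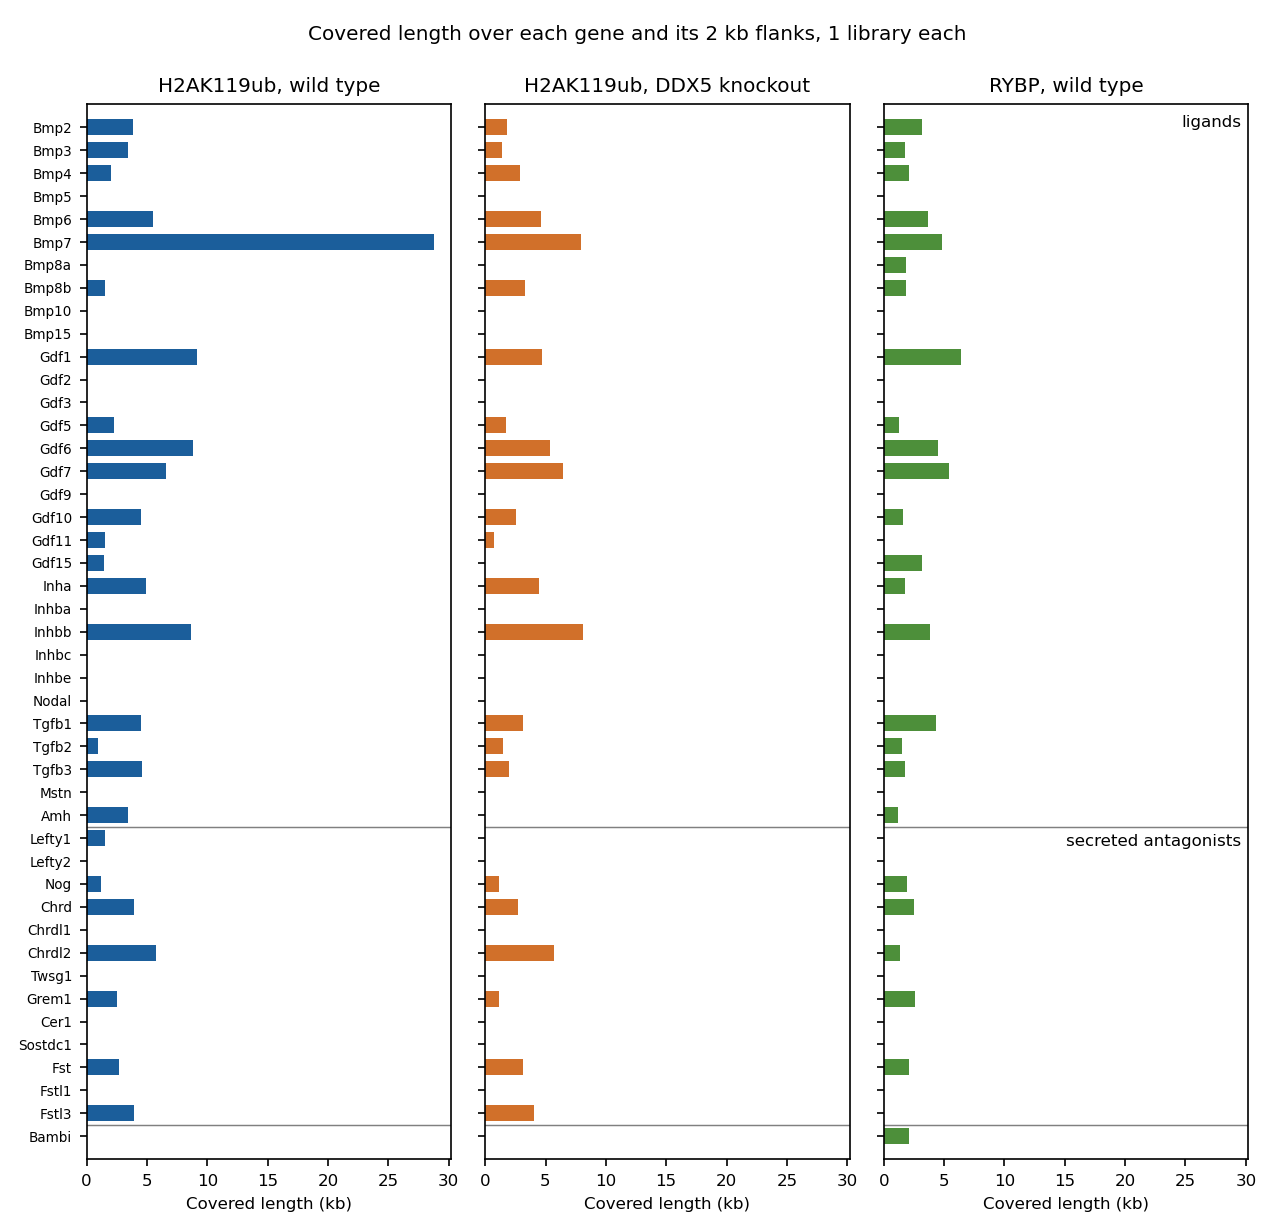
Covered length (kb, 1 bar a gene) over each of the 45 genes and its 2 kb flanks in the wild-type H2AK119ub, knockout H2AK119ub and wild-type RYBP libraries, on 1 scale. Rows run from the 31 ligands through the 13 secreted antagonists to Bambi; Bmp7 has the longest wild-type bar, 28765 bp, and 17 genes have no bar in any panel.

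Among the secreted antagonists, H2AK119ub was present in both genotypes at Chrd, Nog, Chrdl2, Grem1, Fst and Fstl3 and in the wild type alone at Lefty1. It was not found at Lefty2, Chrdl1, Twsg1, Cer1, Sostdc1 or Fstl1, so the chordin-like, follistatin-like and Lefty genes each divided. Chrd (chromosome 16, 20731425 to 20742384), the BMP-binding product of the organizer, had 3904 bp in 1 wild-type peak, 2695 bp in 2 knockout peaks and 2517 bp of RYBP. The knockout peaks lay wholly within the wild-type one. RYBP covered the start listed, which lies inside the gene, whereas the H2AK119ub peaks began further downstream. The RYBP peak, the wild-type peak and 1 of the 2 knockout peaks also overlapped Thpo. Only 35 bp of the wild-type peak lay within 2 kb of either gene end. With peaks shared with Thpo left out, Chrd had 878 bp in the knockout, none in the wild type and no RYBP.

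Nog (chromosome 11, 89300638 to 89302559), the gene of noggin, had 1168 bp and 1144 bp of H2AK119ub at its lower-coordinate end, of which 1009 bp were shared. Only 67 bp of the wild-type peak and none of the knockout peak lay in the gene body. Its RYBP peak of 1923 bp covered most of the gene itself and lay 274 bp from the wild-type peak, so the 2 did not overlap. Chrdl2 (chromosome 7, 100006404 to 100034728), a chordin-like BMP antagonist, had almost equal lengths, 5770 bp in 3 peaks and 5711 bp in 6 peaks, but only 2486 bp were shared. Of the 6 knockout peaks 4 met no wild-type peak, while 71.3% of all knockout peaks at protein-coding genes met one. At Chrdl2 the lengths were thus nearly equal while most of the sequence was not the same. Chrdl1, on the X chromosome, and Twsg1 had no peak.

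Grem1 (chromosome 2, 113748675 to 113758648), gremlin, the BMP antagonist of the limb bud, had 2545 bp in 2 wild-type peaks and 1124 bp in 1 knockout peak, a ratio of 0.44. The 968 bp wild-type peak before the gene start had no knockout counterpart, and RYBP covered 2620 bp including the start. Fst (chromosome 13, 114452262 to 114458989), follistatin, which binds activin, had 2724 bp and 3166 bp in 2 peaks each and 2074 bp of RYBP. Fstl3 (chromosome 10, 79777274 to 79782630), a related activin-binding protein, had 3939 bp and 4066 bp in 2 peaks each and no RYBP, with the nearest RYBP peak 8605 bp from the gene. At Fst and Fstl3 the knockout had slightly more covered sequence, with ratios of 1.16 and 1.03; over gene ends alone the order at Fst was the opposite, by 44 bp. Fstl1, Cer1, the gene of the Nodal and BMP antagonist Cerberus, and Sostdc1 had no peak.

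Lefty1 and Lefty2 encode antagonists of Nodal that are themselves Nodal targets. Lefty1 (chromosome 1, 180935022 to 180938401) had 1560 bp of H2AK119ub in 1 wild-type peak at its lower-coordinate end, no knockout peak within 28607 bp of the gene, and no RYBP peak in its window. The nearest RYBP peak was 3350 bp away. Its neighbour Lefty2 had no peak in any library, and there the nearest knockout peak was 6455 bp from the gene. Bambi (chromosome 18, 3507011 to 3516404), a receptor-like membrane protein without a kinase domain that dampens BMP and TGF-beta signalling, had 2063 bp of RYBP and no H2AK119ub. The nearest wild-type H2AK119ub peak was 1647817 bp from the gene. Bmp8a and Bambi were the 2 members with RYBP and no mark, 4.44%, beside 16.4% of all genes.

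Covered length in the knockout was below that in the wild type at 18 of the 23 members marked in both genotypes, 78.3%, close to the 78.6% among all such genes. It was more than 1.5 times lower at 9 members, beside 43.5% of all such genes, and more than 1.5 times higher at 2, Bmp8b and Tgfb2, beside 6.45%. The median ratio was 0.76 for the members and 0.72 for all genes marked in both. For ligands it was 0.69 over 17 genes and for antagonists 0.98 over 6 genes, where 4 were lower and 2 higher. Over all 45 members the knockout covered 80485 bp against 128019 bp, a ratio of 0.63 beside 0.67 for all protein-coding genes. Bmp7 alone accounts for part of this: without it the ratio was 0.73. Among antagonists the summed ratio was 0.83 (17906 against 21610 bp), and among ligands 0.59 with Bmp7 and 0.70 without it. The members' ratio was thus near that of all genes, and the difference between ligands and antagonists has no test.

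**Figure D3:**
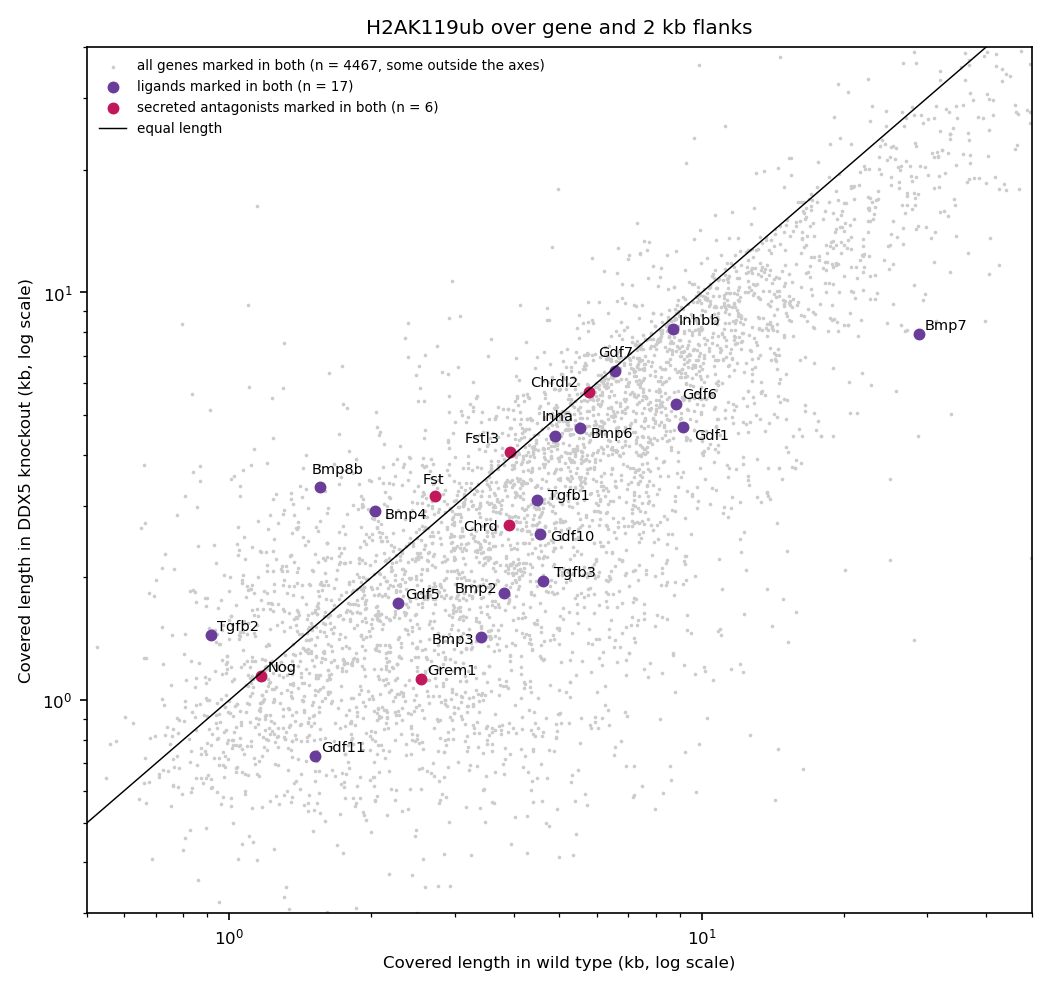
H2AK119ub covered length in the wild type (horizontal axis, kb, log scale) against the DDX5 knockout (vertical axis, kb, log scale) for the 17 ligands and 6 antagonists marked in both genotypes, over the cloud of the 4467 genes marked in both, some of them outside the axes. Most points lie below the line of equal length, as do most of all genes; Bmp7 lies farthest below it among the members, at a ratio of 0.27, and Bmp8b farthest above, at 2.15.

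Of the sequence marked at the members in the wild type, 52.6% was also marked in the knockout, and 83.7% of the knockout sequence was marked in the wild type. For all protein-coding genes these shares were 49.2% and 73.7%. The windows of the 45 members held 67 wild-type peaks, of which 38 met a knockout peak, 56.7%, beside 52.9% of all wild-type peaks at protein-coding genes. Among wild-type peaks that met RYBP a knockout peak met 26 of 35, 74.3%, and among those that did not it met 12 of 32, 37.5%. Without Bmp7 the 2 shares were 24 of 32, 75.0%, and 11 of 20, 55.0%. Across all peaks at protein-coding genes they were 76.6% and 43.9%. Peaks with RYBP were also wider, with medians of 1833 and 1535 bp at the members and 2031.5 and 1286 bp at all genes. The part of width in this difference was not tested.

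**Figure D4:**
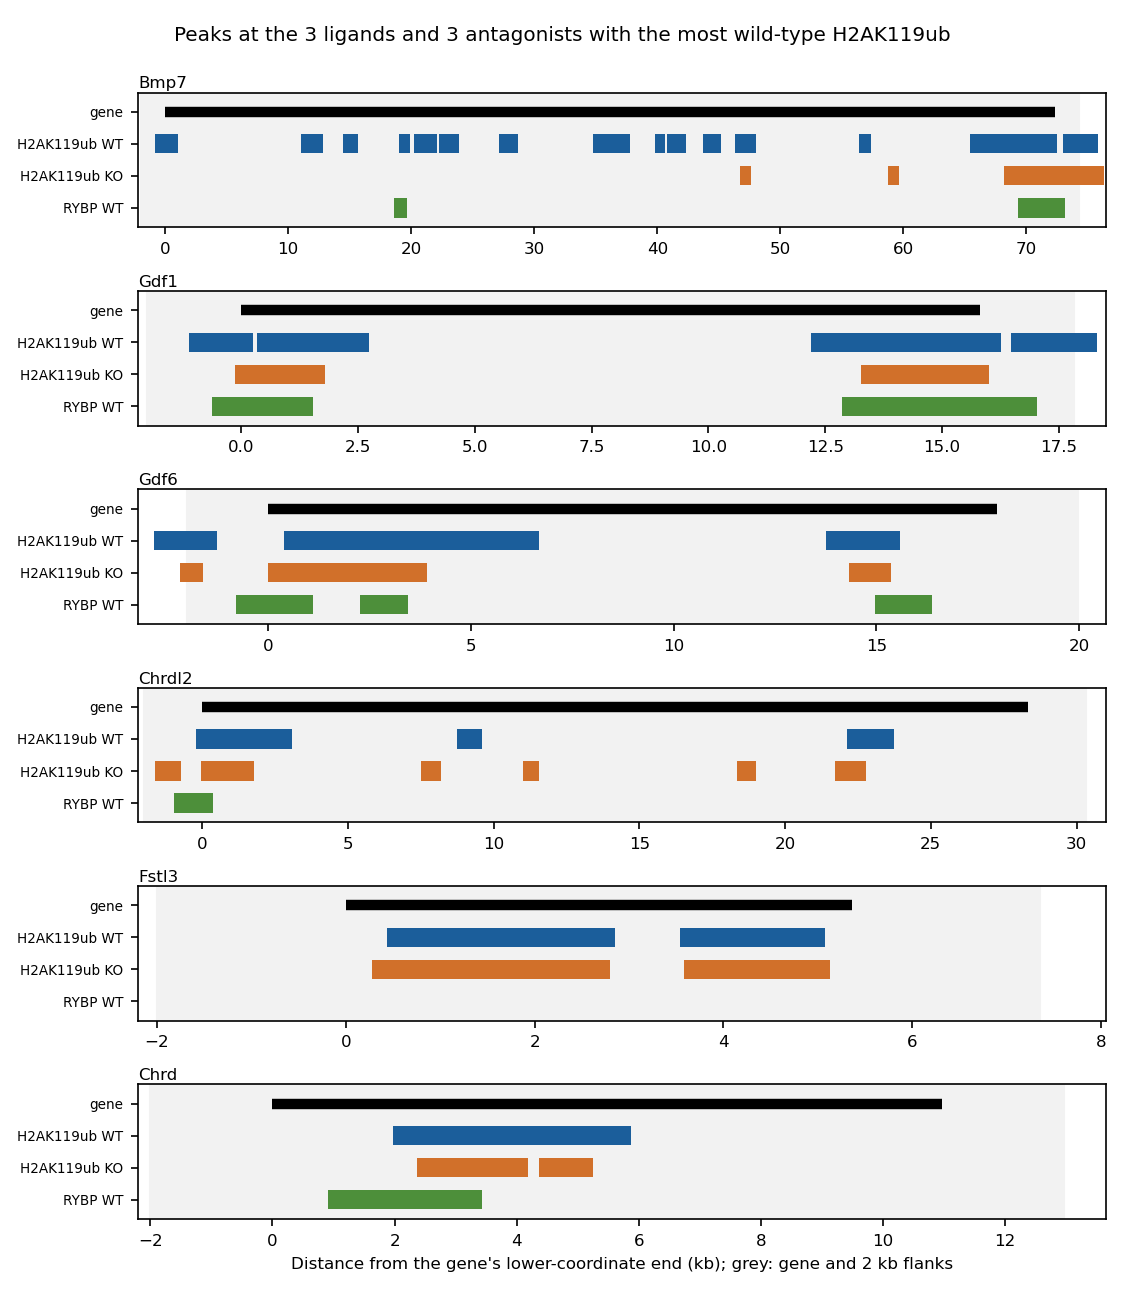
Positions of peaks along the 3 ligand genes and 3 antagonist genes with the most wild-type H2AK119ub, as distance (kb) from the lower-coordinate end of each gene; WT is wild type, KO is DDX5 knockout, the black bar is the gene and the grey field the gene with its 2 kb flanks. At Bmp7 wild-type peaks run along the gene while 2 of the 4 knockout peaks lie at the higher-coordinate end, and at Fstl3 the 2 genotypes are nearly alike.

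RYBP and H2AK119ub differed in where they lay on the genes. For 28 members the table of promoters gives a gene start. Among those, 11 of 14 genes with a RYBP peak had it over the start, 78.6%, beside 78.0% of all protein-coding genes with a RYBP peak. A wild-type H2AK119ub peak covered the start at 5 of 15 marked members, 33.3%, beside 27.8% of all marked genes, and a knockout peak did so at 5 of 14, 35.7%, beside 24.8%. At Tgfb2, Chrd and Bmp8b RYBP covered the start listed and the wild-type mark lay inside the gene. At these genes that start itself lies inside the gene, and RYBP did not reach the gene end on that side. At Gdf10 RYBP covered the start too, while wild-type peaks lay inside the gene and, over 173 bp of the window, before it, whereas at Bmp6, Gdf1, Tgfb1 and Inhbb both covered it. RYBP peaks at the members met a wild-type H2AK119ub peak in 25 of 31 cases, 80.6%, beside 46.7% of the 8455 RYBP peaks at protein-coding genes. They met a knockout peak in 22 cases, 71.0%, beside 40.8%.

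The promoters of the members were compared because variant Polycomb complexes are recruited to CG-rich sequence. Promoter sequences from RefSeq, build GRCm38.p6, run from 250 bases before to 50 bases after the gene start, and 28 of the 45 members have one in the table used. The motif counted was the dinucleotide CG, which reads the same on both strands. The 6 promoters printed here, 5′ to 3′ on the gene's strand with each CG in capitals, show members that differ in the peaks found. The members with the mark and no RYBP, Gdf11 and Fstl3, are not among those printed. In Gdf1 (chr8:70315525-70315824, plus strand) and Inhbb (chr1:119422199-119422498, minus strand) peaks of all 3 libraries meet the promoter. The Gdf15 gene (chr8:70632407-70632706, minus strand) carried the mark only in wild-type cells, and no peak touched this window. Bmp8a (chr4:123343203-123343502, minus strand) had RYBP and no mark. Bmp15 (chrX:6320675-6320974, minus strand) and Twsg1 (chr17:65951138-65951437, minus strand) had no peak and the fewest and the most CG of that class. Of the antagonists with a promoter sequence, Chrd, Grem1, Fstl3, Cer1, Fstl1 and Twsg1, none had peaks of all 3 libraries there. The marked antagonists Nog, Fst, Chrdl2 and Lefty1 have no promoter sequence and were not examined for this.
Gdf1: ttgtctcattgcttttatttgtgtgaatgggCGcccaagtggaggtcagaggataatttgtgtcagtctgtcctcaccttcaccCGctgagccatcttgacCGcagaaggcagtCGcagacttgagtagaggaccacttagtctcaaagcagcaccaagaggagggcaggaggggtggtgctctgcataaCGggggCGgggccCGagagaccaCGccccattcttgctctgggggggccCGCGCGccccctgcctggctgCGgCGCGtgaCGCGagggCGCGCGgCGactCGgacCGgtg
Inhbb: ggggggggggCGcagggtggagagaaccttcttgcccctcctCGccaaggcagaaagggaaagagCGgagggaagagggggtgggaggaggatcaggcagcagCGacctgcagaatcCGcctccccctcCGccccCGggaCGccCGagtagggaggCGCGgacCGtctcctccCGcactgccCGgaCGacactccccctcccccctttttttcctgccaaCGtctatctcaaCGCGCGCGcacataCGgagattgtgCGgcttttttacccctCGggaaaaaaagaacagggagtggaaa
Gdf15: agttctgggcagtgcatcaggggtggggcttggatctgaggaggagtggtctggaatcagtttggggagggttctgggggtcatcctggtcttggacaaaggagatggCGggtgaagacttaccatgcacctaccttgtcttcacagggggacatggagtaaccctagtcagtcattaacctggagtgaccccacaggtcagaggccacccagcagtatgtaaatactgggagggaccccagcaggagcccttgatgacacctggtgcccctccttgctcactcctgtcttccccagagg
Bmp8a: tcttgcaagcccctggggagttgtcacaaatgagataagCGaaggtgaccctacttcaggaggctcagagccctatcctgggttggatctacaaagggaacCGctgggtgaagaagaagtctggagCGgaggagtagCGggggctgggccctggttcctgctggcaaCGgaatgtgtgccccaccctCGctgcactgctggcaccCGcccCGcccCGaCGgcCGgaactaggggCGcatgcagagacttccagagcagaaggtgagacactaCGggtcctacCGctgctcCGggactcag
Bmp15: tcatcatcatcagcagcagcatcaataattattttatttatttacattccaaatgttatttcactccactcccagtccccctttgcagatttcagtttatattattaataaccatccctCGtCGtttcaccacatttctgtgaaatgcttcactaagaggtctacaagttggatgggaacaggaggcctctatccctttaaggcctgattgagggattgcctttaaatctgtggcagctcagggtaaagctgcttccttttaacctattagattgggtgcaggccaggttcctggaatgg
Twsg1: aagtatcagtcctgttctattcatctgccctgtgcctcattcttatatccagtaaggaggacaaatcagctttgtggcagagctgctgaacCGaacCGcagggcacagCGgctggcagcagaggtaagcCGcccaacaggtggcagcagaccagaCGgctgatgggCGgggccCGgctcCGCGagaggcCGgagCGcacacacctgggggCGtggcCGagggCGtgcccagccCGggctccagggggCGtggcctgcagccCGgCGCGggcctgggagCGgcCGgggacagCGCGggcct

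The CG counts differ plainly between these sequences. Inhbb has 23 CG, Gdf1 22, Bmp8a 15, Gdf15 1, Bmp15 2 and Twsg1 23. The 13 members with both H2AK119ub and RYBP had a median of 23 CG, from 1 at Gdf15 to 42 at Gdf10, and the 12 members with no peak a median of 6, from 2 to 23. For all protein-coding genes the medians in the same classes were 21 and 6. At least 15 CG were found in 9 of the 13 promoters and in 2 of the 12, those of Twsg1 and Fstl1, beside 67.8% and 33.2% of all promoters in these classes and 48.0% of all promoters. Gdf11 with 36 CG and Fstl3 with 25 were marked without RYBP, a class whose median over all genes was 9. RYBP touched 0 of 5 member promoters with at most 4 CG and 6 of 8 with at least 25, beside 1.35% and 59.7% of all promoters. The wild-type mark touched 4 of the latter 8 and the knockout mark 2, beside 13.0% and 10.3% of all promoters with at least 25 CG. Over all promoters the wild-type share was 3.2% with at most 4 CG, 13.0% with 5 to 14 and 11.5% with 15 to 24. Gdf15, Inha and Bmp4, with 1, 5 and 12 CG, had RYBP in the window of the gene but not on the promoter. At Inha the RYBP peak lay outside the gene, at 257 bp, and overlapped Obsl1. H2AK119ub lay on the Inha promoter in both genotypes and on the Bmp4 promoter in the knockout. The share of promoters with RYBP was higher in the classes with more CG among the members and among all genes alike.

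**Figure D5:**
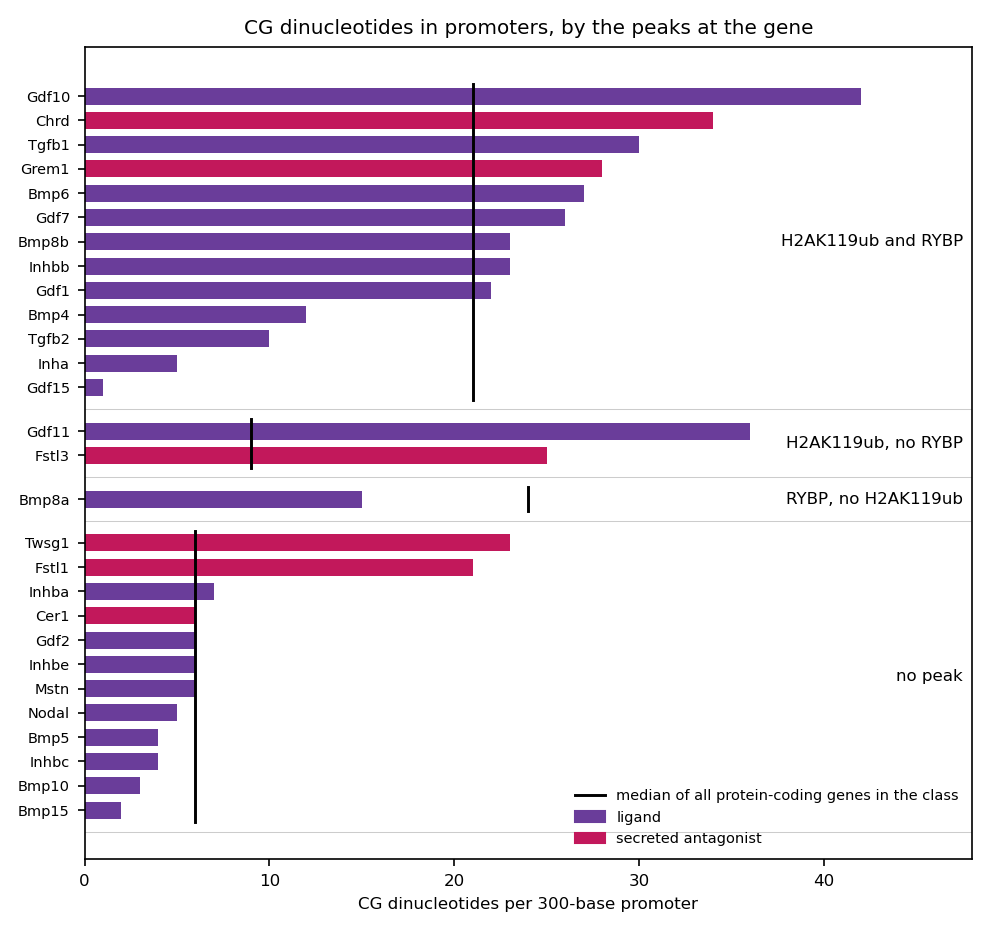
CG dinucleotides in the 300-base promoter (horizontal axis, count) of the 28 members with a promoter sequence, grouped by the peaks found at the gene; purple bars are ligands and red bars antagonists. Black lines give the median of all protein-coding genes in each class, 21 with mark and RYBP, 9 with the mark alone, 24 with RYBP alone and 6 with no peak; Twsg1 and Fstl1 stand above the other members without a peak.

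The rest of the pathway was described from a list of 44 genes. H2AK119ub was present at 20 in wild-type cells, 45.5%, beside 27.9% of all genes, and at 21 in knockout cells, 47.7%, beside 23.6%. Both genotypes were marked at 19 of them, 43.2%, beside 20.7% of all genes. RYBP was present at 34, 77.3%, beside 37.6%. These genes are long, with a median of 39491 bp against 17329 bp over all genes, and the part of length in these shares was not tested. Of 18 receptors and SMADs that carry the signal 15 had RYBP, 83.3%, and 11 had RYBP and no mark in either genotype, 61.1%, beside 37.6% and 16.4% of all genes. The wild-type mark was present at 4, 22.2%, which is near the 27.9% of all genes. This grouping of 18 was chosen after the values had been seen. Of the 12 type I and type II receptor genes 3 were marked, the endothelial receptor gene Acvrl1 (11764 bp in wild-type and 12347 bp in knockout cells), Acvr2b (3751 and 2562 bp) and Bmpr1b (757 and 1443 bp). Smad1, a SMAD of the BMP branch on chromosome 8, carried 1975 bp of the mark in wild-type cells and none in the knockout. No other of the 6 signal-carrying SMAD genes was marked.

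Co-receptors were marked at 5 of 7 genes in wild-type cells, 71.4%, and 6 in knockout cells, 85.7%, beside 27.9% and 23.6% of all genes. Rgma, a BMP co-receptor, had 9619 bp in wild-type and 23985 bp in knockout cells, Tgfbr3, the TGF-beta co-receptor betaglycan, 7813 and 2697 bp, and Hjv, hemojuvelin, 2595 and 1334 bp. Eng, endoglin, was marked in the knockout alone over 624 bp. Of 8 inhibitors of the pathway 3 were marked in both genotypes, 37.5%, beside 20.7% of all genes: Pmepa1 (9525 and 3160 bp), Ski (5708 and 5408 bp) and Smad6 (5674 and 3408 bp). Target genes were marked at 8 of 11 in wild-type cells, 72.7%, and 9 in knockout cells, 81.8%, again beside 27.9% and 23.6%. Among them, the homeobox gene Msx1 had 8074 and 7553 bp and the T-box gene Eomes 6176 and 4140 bp. Id3, an inhibitor of differentiation that BMP signals induce, was marked in the knockout alone over 3428 bp. Summed over the 44 genes the knockout covered 0.98 times the wild-type length, beside 0.67 for all protein-coding genes. Without Rgma the ratio was 0.82, and without Rgma and Msx2, a homeobox target gene with 2396 and 8433 bp, it was 0.75. The genes left out were chosen after their values had been seen.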

How the data were processed

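Per the submitters' processing notes, Bowtie2 version 2.2.5, MACS version 1.4 and the build mm10 were used, while the peak threshold, and whether inputs served as controls, is not given in the sources used here. For each of 3 libraries the authors deposited 1 peak list with chromosome, start and end in base pairs. Its score column is 0 for every peak in the deposited files, so no peak height was used, and read depth is unknown. The 2 input libraries were not analysed here. Groups came from the sample titles, with 1 library each and no replicates, so no test was run between genotypes and shares carry Wilson intervals at 95%.

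Starts were converted to positions counted from 1. Genes were the 21631 protein-coding genes of chromosomes 1 to 19 and X in the RefSeq gene table, assembly GRCm38.p6, which shares its coordinates with mm10. Windows were the gene and 2 kb on either side, which gives long genes more room for a peak, and 1 peak can mark neighbouring genes. Gene starts came from the promoter table, the first listed where there were several. Such a start can lie inside the gene, as at Tgfb2, Chrd and Bmp8b. The strand of the other members is not used here. Overlap and covered length were computed with Python 3.11.15, pandas 2.3.3 and numpy 2.4.6 by code tested on simulated peaks. Alternatives were other flanks, gene ends alone, 50% of the peak inside the window, a minimum peak width of 1 kb, H2AK119ub lists cut to the same number of their widest peaks, peaks within 2 kb merged, no chromosomes 6 and 8, and Lefty genes counted as ligands. Windows without flanks, peaks of other genes left out, the sum without Bmp7 and the pathway sum without Rgma or Msx2 were added after seeing the data.

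The members, roles, pathway list and markers were chosen with earlier results of these data known. Every member is named with its calls. Pathway genes named are those with the most wild-type covered length in each class, up to 3, and those marked in 1 genotype alone. A target gene that this rule would name is not reported here. Promoters printed are up to 2 per class of peaks and role.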

Additional observations from a re-analysis of the deposited data

How the results depend on the processing

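No paired analysis was possible because each group has 1 library and the labels carry no replicate numbers, and for the same reason no replicate could be left out. The counts of members marked in the wild type, in the knockout, in both genotypes and in the wild type alone, and the count with RYBP, stayed within 1.5 times their values under every alternative run. The count with RYBP fell from 25 to 20 when peaks overlapping another protein-coding gene were left out. Inha, Tgfb1, Gdf1, Gdf7 and Chrd then had none. No share of all genes was computed for that setting. The count of members marked only in knockout cells was 0, and became 1 with peaks of at least 1 kb (Tgfb2) and 2 when peaks overlapping another protein-coding gene were left out (Inha and Chrd). The ratio of covered length, 0.63 beside 0.67 for all genes, was 0.62 with 1 kb flanks (all genes 0.67) and 0.61 with 5 kb flanks (0.66). Over gene ends alone it was 0.77 (0.69), and with peaks of at least 1 kb 0.59 (0.59). With both lists cut to the same number of their widest peaks it was 0.66 (0.70), and with peaks within 2 kb merged 0.61 (0.69). Without chromosomes 6 and 8 it was 0.65 (0.63). The members were thus above all genes over gene ends alone and without chromosomes 6 and 8. Over all genes of chromosome 6 the ratio was 1.28. Without peaks of other genes the members' ratio was 0.62 and without Bmp7 0.73. The difference between ligands and antagonists lay between 0.993 points (gene body without flanks) and 9.12 points (without chromosomes 6 and 8) and kept its sign. With Lefty1 and Lefty2 counted as ligands it was 6.06 points.

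For single genes the knockout minus wild-type length changed sign as follows: Gdf7 to 5 bp with 1 kb flanks and 92 bp without flanks, Inhbb to 289 bp with 5 kb flanks, Gdf6 to 44 bp, Chrdl2 to 526 bp, Tgfb3 to 39 bp and Fst to -44 bp over gene ends alone, Chrdl2 to 809 bp with equal numbers of peaks and 614 bp with peaks merged, Bmp4 to -75 bp without flanks, and Inha to 1171 bp and Chrd to 878 bp without peaks of other genes, where neither had a wild-type peak. The cause was not tested. Unknown depth limits every absence of a peak.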

Other observations

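Esrrb, an orphan nuclear receptor gene of embryonic stem cells and the only marked gene among their markers listed here, had values like those of Bmp7. It had 31314 bp of H2AK119ub in 18 wild-type peaks and 8525 bp in 5 knockout peaks, a ratio of 0.27, with 4801 bp of RYBP in 2 peaks. Among the marked fibroblast genes the ratios ran from 0.45 at Twist1 to 0.93 at Col1a1.

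Rgma (chromosome 7, 73375520 to 73419899) had 6 wild-type and 15 knockout H2AK119ub peaks, a ratio of covered length of 2.49, where all genes of chromosome 7 together had a ratio of 0.55. Msx2 (chromosome 13, 53466881 to 53472780), a homeobox gene that BMP signals induce, had 2396 bp in 1 wild-type peak and 8433 bp in 6 knockout peaks. Both were singled out after their values had been seen, and each rests on 1 library a genotype.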
